A study of Mus musculus with 11 samples.

Results

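Neutrophils and monocytes were sought among the cerebrovascular cells of the CADASIL mouse model by a gate on raw UMI counts (unique molecular identifiers, each standing for 1 captured RNA molecule). Of 66658 deposited barcodes, 61625 met both quality limits (no fewer than 500 genes, no more than 10% of UMIs mitochondrial) and are called kept barcodes, and 66 of them passed the gate. Members were chosen by their measured UMIs of 12 genes. A barcode was neutrophil-gated with at least 30 UMIs of S100a8 and S100a9 together. It was monocyte-gated with at least 2 UMIs of Lyz2, at least 3 of Ccr2, Plac8 and Ly6c2 together, and fewer than 30 of S100a8 and S100a9. Both gates asked for 0 UMIs of the lymphocyte genes Cd79a and Cd3e, at most 3 of the endothelial genes Cldn5 and Flt1 together and at most 1 of P2ry12 and Cx3cr1 together. This left 4 neutrophil-gated and 62 monocyte-gated barcodes. The levels of these genes are fixed by the choice and are given as description.

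The cells came from 6 R182C-TgN3 mice, labelled CADASIL, and 5 WT-TgN3 control mice, each giving 1 library. A human NOTCH3 transgene is carried by all 11 mice, in its wild-type form in the controls and as the R182C variant in the CADASIL mice, and no mouse was treated. The labels name every R182C-TgN3 mouse Tg350 and every WT-TgN3 mouse Tg100, so the variant and other differences between Tg350 and Tg100 cannot be told apart. The promoter of the transgene is not given in the sources used here. The mice were 6 months old (3 of each genotype) or 9 months old (3 R182C-TgN3 and 2 WT-TgN3) and of both sexes, and the labels give 4 batches, of which batch 2 held 1 R182C-TgN3 mouse alone. Vessel fragments were pulled down by way of the surface protein CD31 before they were digested to single cells, so the shares of leukocytes describe this preparation and not the brain. Pecam1, the gene of CD31, was found in 15 of the 62 monocyte-gated and 0 of the 4 neutrophil-gated barcodes. Whether the pull-down favoured some leukocytes was not tested. Human NOTCH3 was counted in every library, with 352 to 1866 UMIs in R182C-TgN3 and 144 to 418 in WT-TgN3 libraries.

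Neutrophils are short-lived granulocytes that are made in the bone marrow, where granule proteins are transcribed in waves, first the serine proteases and myeloperoxidase of the primary granules and later the antimicrobial proteins of the secondary granules. Mature neutrophils in blood have largely stopped making granule proteins and carry the receptors Csf3r and Cxcr2. Classical monocytes carry Ccr2 and Ly6c2, non-classical monocytes patrol the inner vessel wall and carry Ace and Treml4, and dendritic cells load peptides on major histocompatibility complex (MHC) class II molecules.

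The upstream sequences of 5 genes that the results below turn on are shown first, since S100a8 and S100a9 set the neutrophil gate, Elane had its highest count in 1 neutrophil-gated barcode and was found in 3 of the 5 granule-enzyme barcodes, and H2-Aa and H2-Eb1 mark the largest group of the monocyte gate. They are from RefSeq (GRCm38.p6), are written 5′ to 3′ on the strand of the gene, and hold only bases before the start of the gene in both RefSeq and the annotation of the files. S100a8 and S100a9 encode the subunits of calprotectin. Their sequences are from chr3:90668821-90668977 (plus strand) and chr3:90695722-90695971 (minus strand), and capitals mark GGAAGT, a core bound by ETS factors such as PU.1, on either strand.
S100a8: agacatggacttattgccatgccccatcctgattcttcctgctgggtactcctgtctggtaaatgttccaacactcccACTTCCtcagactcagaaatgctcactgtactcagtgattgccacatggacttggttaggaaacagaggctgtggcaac
S100a9: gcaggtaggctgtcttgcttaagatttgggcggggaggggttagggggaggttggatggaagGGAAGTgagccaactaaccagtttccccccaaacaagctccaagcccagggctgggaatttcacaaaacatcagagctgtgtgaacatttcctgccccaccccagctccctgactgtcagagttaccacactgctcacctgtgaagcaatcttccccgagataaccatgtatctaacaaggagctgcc
Elane encodes neutrophil elastase, and its sequence is from chr10:79886062-79886246 (plus strand), with the same motif in capitals.
Elane: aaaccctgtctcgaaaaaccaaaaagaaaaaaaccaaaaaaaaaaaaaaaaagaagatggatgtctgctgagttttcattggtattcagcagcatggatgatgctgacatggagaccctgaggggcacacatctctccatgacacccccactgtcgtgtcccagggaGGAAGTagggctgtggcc
H2-Aa and H2-Eb1 encode class II chains. Their sequences are from chr17:34287824-34288073 (minus strand) and chr17:34305617-34305866 (plus strand), and capitals mark ATTGG, the reverse of the CCAAT box, on either strand.
H2-Aa: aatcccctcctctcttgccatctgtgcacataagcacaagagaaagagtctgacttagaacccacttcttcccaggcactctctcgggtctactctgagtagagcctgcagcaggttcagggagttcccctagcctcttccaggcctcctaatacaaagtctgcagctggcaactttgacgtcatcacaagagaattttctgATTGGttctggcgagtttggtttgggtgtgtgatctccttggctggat
H2-Eb1: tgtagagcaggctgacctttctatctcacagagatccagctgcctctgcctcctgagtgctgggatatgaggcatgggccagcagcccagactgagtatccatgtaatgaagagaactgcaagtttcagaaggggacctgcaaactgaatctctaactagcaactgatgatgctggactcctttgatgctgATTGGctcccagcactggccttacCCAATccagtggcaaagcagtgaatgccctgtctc
Within 250 bases before the RefSeq start, GGAAGT on either strand was found in all 5 primary granule genes in the promoter table (Mpo, Elane, Prtn3, Ctsg, Ms4a3), in 4 of 8 secondary granule genes and in 0 of 4 class II genes, against 20% of the 27025 genes with such a window. It was also found in 6 of 12 cytokine and chemokine genes and in 3 of 5 genes of the S100 list. Of the 7 class II genes listed, 4 had such a window. ATTGG was found in 3 of these 4 (H2-Aa, H2-Eb1 and H2-DMb1), in 2 of 5 primary and 4 of 8 secondary granule genes. It was found in 2 of 12 cytokine and chemokine genes, in 1 of 5 genes of the S100 list and in 34.5% of all genes. In H2-Aa it lay 48 to 44 bases before the start, and in H2-Eb1 59 to 55 bases before it and, on the other strand, 35 to 31 bases before it. In S100a8 GGAAGT is on the other strand, so it reads ACTTCC above. The motifs were picked with the sequences in view, do not overlap each other and describe letters only.

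The neutrophil gate lay in a wide gap of the data. Its lowest member held 111 UMIs of S100a8 and S100a9, while, apart from 1 barcode that reached the S100 limit and was left out for its Cldn5 and Flt1 UMIs, the highest kept barcode outside it held 6. The 4 members held 7378 such UMIs, and 67 were found in all barcodes under the limit in the 11 libraries. Among 39800 endothelial barcodes (at least 10 UMIs of Cldn5 and Flt1) with a median of 5158 UMIs, 0.0176% had a UMI of S100a8 and 0.0377% a UMI of S100a9. The monocyte gate had no such gap. Of its members, 11 held exactly 3 UMIs of Ccr2, Plac8 and Ly6c2 and 3 held 4, while 6 barcodes that met every other limit held 2, 20 held 1 and 111 held 0. Its median was 9 UMIs and its highest 197. A UMI of Ccr2 was found in 0.113% of endothelial barcodes and of Lyz2 in 3.31%, against 74.2% and, by rule, all of the monocyte-gated barcodes, whose median was 7934 UMIs.

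The 4 neutrophil-gated barcodes fell into 2 unlike pairs. The first barcode of the 9-month R182C-TgN3 mouse 1 (2499 UMIs) and the barcode of the 9-month WT-TgN3 mouse 2 (2713 UMIs) held cytokine transcripts, while the lists of primary and secondary granule genes gave 0 UMIs in the former and 3, all of Lcn2, in the latter. Il1b, the precursor of interleukin-1 beta, gave 18 and 47 UMIs, the neutrophil attractant Cxcl2 gave 33 and 79, Ccl3 gave 11 and 16 and Ccl4 gave 18 and 13. Receptors of mature neutrophils were found in both, with 5 and 4 UMIs of Csf3r, 1 and 3 of Cxcr2 and 5 and 6 of the decoy receptor Il1r2. Csf3r and Il1r2 were not particular to this gate, since they were also found in 16 and 24 of the 62 monocyte-gated barcodes. Cxcr2 was found in 0 of the 62. The R182C-TgN3 barcode had 3 UMIs of Stfa2l1 and 1 of Retnlg, and the WT-TgN3 barcode had 10 and 11.

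The other pair held granule transcripts, and the cytokines named above gave 1 UMI in all. In the second barcode of the 9-month R182C-TgN3 mouse 1 (9614 UMIs), the secondary granule genes were high, with 603 UMIs of Camp (cathelicidin), 345 of Ngp, 109 of Lcn2, 92 of Chil3 and 84 of Ltf (lactoferrin), and Mpo, Elane and Prtn3 were at 0. In the barcode of the 6-month R182C-TgN3 mouse 3 (30323 UMIs, 5100 genes), primary granule enzymes stood beside them, with 586 UMIs of Elane, 244 of Prtn3, 104 of Mpo and 42 of Ctsg, along with 1078 of Camp and 202 of Ngp.  Cebpe, a factor of granulocyte maturation, was found in 3 of the 4 barcodes of the gate, and Ly6g, a common surface marker of mouse neutrophils, in 1. S100a11, Pglyrp1 and the oxidase genes Cyba and Rac2 were among the genes found in all 4. The label of neutrophils thus rests on different marker genes in the pairs.

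**Figure D1:**
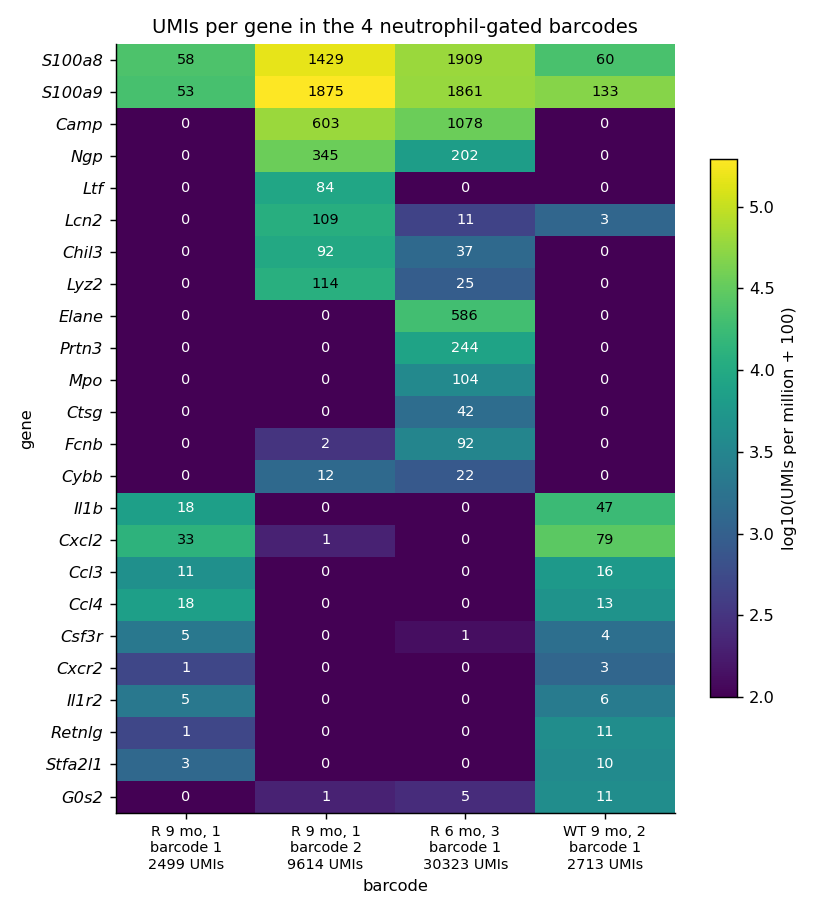
UMIs of 24 genes (rows, with the UMI count printed in each cell) in the 4 neutrophil-gated barcodes (columns, with mouse and total UMIs), where R is R182C-TgN3 and WT is WT-TgN3, mo is months of age, and colour is log10 of CPM plus 100, where CPM is UMIs scaled to a total of 1e6. The outer columns carry Il1b, Cxcl2, Ccl3 and Ccl4, the inner columns carry Camp and Ngp, and Elane with 586 UMIs is in the third column alone.

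Markers of other cell types were looked up in these 4 barcodes. No UMI of the 7 erythroid, 6 platelet, 10 perivascular macrophage or 9 dendritic cell genes was found in any of them, and the class II genes gave 1 UMI in all, of H2-Eb1. Microglial genes gave 2 to 9 UMIs per barcode. Endothelial genes gave 0 to 3 UMIs. The T or natural killer cell list gave 16 UMIs, all of Nkg7, in the barcode of the 6-month R182C-TgN3 mouse 3 and 0 in the others. Mbp, a myelin gene, gave 6 UMIs in the WT-TgN3 barcode alone. The part of these transcripts in the counts was not tested.

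The label of monocytes covered barcodes with unlike leading genes, and they are described here by those genes, in groups cut after their values were seen. The limits are at least 100 UMIs of the 7 class II genes, then at least 10 UMIs of the 6 primary granule genes, then at least 8 UMIs of Ace, Treml4, Cd300e, Adgre4, Eno3 and Pou2f2 together. Class II-high barcodes made up 32 of 62, granule-enzyme barcodes 5, Ace-Treml4 barcodes 14 and the remaining barcodes 11. The class II sum ran up to 78 UMIs below its limit and from 157 to 1082 UMIs above it. As a percentage of all UMIs the sides overlapped slightly, with up to 2.64% below and from 2.21% above.

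The class II-high barcodes had a median of 8449.5 UMIs and came from 9 mice. H2-Ab1 ranged from 24 to 196 UMIs with a median of 71 in them, against a highest value of 14 in the other monocyte-gated barcodes, and Cd74, the invariant chain, ranged from 61 to 456. Dendritic cell genes went with them. Cd209a was found in 18 of the 32 barcodes and in 2 of the other 30, Flt3, the receptor of a dendritic cell growth factor, in 18 and 2, and Zbtb46, a factor of classical dendritic cells, in 16 and 0. Clec9a and Xcr1, which mark the cross-presenting dendritic cells, were found in 9 and 6 of the 32, and Ccr7, found on migrating dendritic cells, in 0 of all 62. Genes of the perivascular macrophage list were found beside these, in 22 of the 32 barcodes and in 36 of all 62. Dab2 was found in 16 of the 32 and 16 of all 62, and Mrc1 in 16 and 17. Lyve1, Folr2 and Cbr2 were found in 0 of the 32. Ccr2 was found in 30 of the 32, with a median of 5.5 UMIs, and Ly6c2 in 7. The complement genes C1qa, C1qb and C1qc together reached 10 UMIs in 6 class II-high barcodes and the C1qb count reached 65 in 1 of these, from the 6-month R182C-TgN3 mouse 3.

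The Ace-Treml4 barcodes carried genes of non-classical monocytes that the limit did not use. Nr4a1, a factor that these cells need, was found in 14 of 14 with a median of 10 UMIs, and Csf1r in 14 of 14. Neither was found in this group alone, since they were found in 53 and 41 of all 62 monocyte-gated barcodes. Fabp4 reached 443 CPM (UMIs scaled to a total of 1e6) in the pooled group against 1.87 CPM in the other monocyte-gated barcodes, Cd36 1872 against 52.5 CPM, and Gngt2 1293 against 33.7 CPM. Ccr2 was found in 2 of the 14 and F13a1 in 0, so these barcodes met the gate mainly through Plac8, which all 14 held. Perivascular macrophage genes were at 0 in all 14. They came from 5 mice, with 10 barcodes of R182C-TgN3 and 4 of WT-TgN3 genotype.

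The 5 granule-enzyme barcodes were large, with 15637 to 42758 UMIs, and came from 5 mice. Mpo was found in all 5, with 5 to 90 UMIs, Ctsg with 2 to 118 and Prtn3 with 5 to 186, while S100a8 and S100a9 stayed under the neutrophil limit by rule, with at most 1 UMI in the whole monocyte gate. The sum of the cell cycle genes ran from 1535 to 5735 CPM in them, from 0 to 2738 CPM in the class II-high barcodes with a median of 283 CPM, and from 0 to 6254 CPM in the remaining barcodes with a median of 209.9 CPM. Mki67 was found in 5 of 5 and Stmn1 in 5 of 5. The barcode of the 6-month WT-TgN3 mouse 2 also held 281 UMIs of Mcpt8, 154 of Prss34 and 57 of Cpa3, proteases of basophils and mast cells, all at 0 in the other 61 monocyte-gated barcodes.

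The remaining 11 barcodes carried genes of classical monocytes that the gate did not use. F13a1 was found in 10 of 11, Fn1 in 9, Chil3 in 6 and Vcan in 5. F13a1 was also found in 4 of the 5 granule-enzyme barcodes, at 905 CPM in that pool against 665 CPM in the remaining pool. Fn1, Chil3 and Vcan were at 0 in those 5. The gate genes Ccr2 and Ly6c2 were found in 11 and 6 of the remaining barcodes. Pooled Ly6c2 was 605 CPM in them against 1465 CPM in the granule-enzyme barcodes. Genes of other cell types stood out in 4 of the remaining barcodes. The microglial list gave 19 of the 1402 UMIs of a barcode of the 9-month R182C-TgN3 mouse 2. As a share of UMIs, haemoglobin genes made up 48.4% of the UMIs of a barcode of the 9-month R182C-TgN3 mouse 3, mural genes gave 280 UMIs in a barcode of the 9-month R182C-TgN3 mouse 1, of which 120 were Acta2, and platelet genes gave 43 UMIs in a barcode of the 6-month WT-TgN3 mouse 3. Their part in the counts was not tested.

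**Figure D2:**
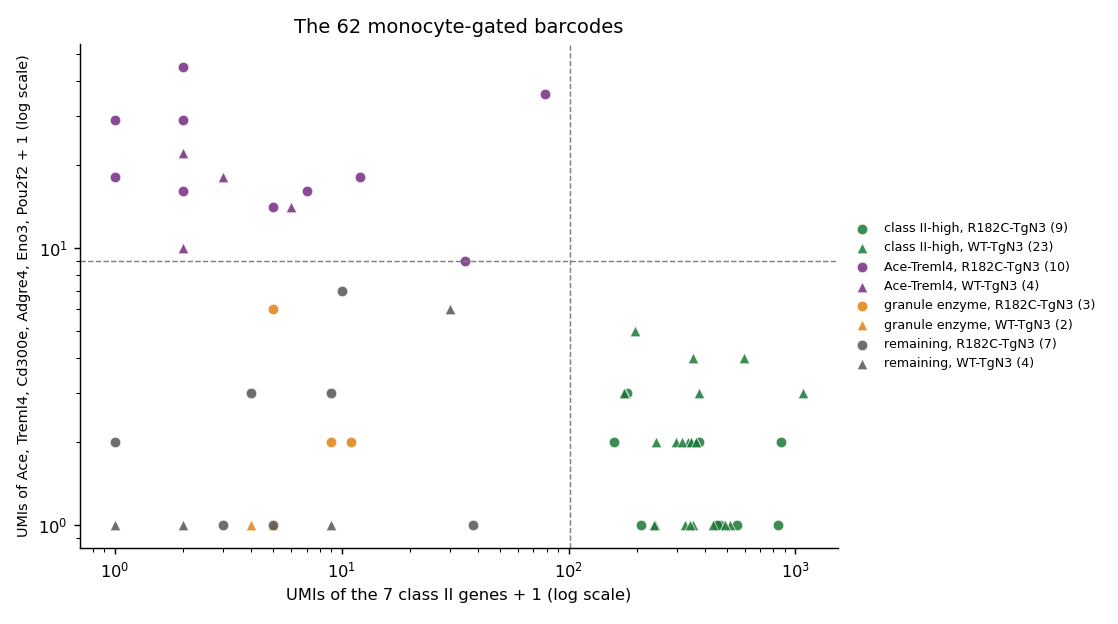
Each point is 1 of the 62 monocyte-gated barcodes, with UMIs of 7 class II genes plus 1 on the x axis and UMIs of Ace, Treml4, Cd300e, Adgre4, Eno3 and Pou2f2 plus 1 on the y axis, both on log scales. Colour is the group, shape the genotype, numbers in the key count barcodes, and dashed lines are the limits of 100 and 8 UMIs. No barcode lies past both limits, and 23 of the 32 class II-high barcodes are from WT-TgN3 mice.

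The neutrophil and monocyte gates were then compared with each other. The gate used this contrast, and no mouse held 5 barcodes of both, so UMIs were pooled per gate and no test is given. The pool of the neutrophil gate held 45149 UMIs, of which 67.2% came from the barcode of the 6-month R182C-TgN3 mouse 3, and that of the monocyte gate held 614520. Of 3972 genes outside the gate with at least 50 CPM in either pool, 709 (17.8%) were at least 2-fold higher in the neutrophil gate and 1284 (32.3%) at least 2-fold higher in the monocyte gate, on values of CPM plus 10. Without the 6-month R182C-TgN3 mouse 3 these were 1227 and 1763 genes, and without the 9-month R182C-TgN3 mouse 1 the first was 1099.

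Of the neutrophil list, 15 of 17 genes above 50 CPM were higher in the neutrophil gate and 0 in the monocyte gate, with a median log2 difference of 3.38. The list sum was 4551 to 27276 CPM in the 4 neutrophil-gated barcodes and at most 3155 CPM in the 62 monocyte-gated barcodes, so the gates did not overlap. Primary granule genes were higher in the neutrophil pool for 5 of 6, secondary for 6 of 7 and tertiary for 5 of 5. The primary list rested on 1 barcode, that of the 6-month R182C-TgN3 mouse 3, with 1018 UMIs against 0 to 3 in the other 3. The secondary list gave 1363 and 1356 UMIs in the granule pair and 0 and 3 in the cytokine pair. The tertiary count rested on few UMIs, with 3 of Mmp9, 3 of Adam8 and 5 of Arg2 in the neutrophil pool. In that pool 3 UMIs make 66.4 CPM, so Mmp9 and Adam8 passed the limit of 50 CPM through it alone. Camp was at 0 in all 62 monocyte-gated barcodes, and Ngp gave 1 UMI there. Genes of the phagocyte oxidase, which makes superoxide, were higher in the neutrophil gate for 4 of 6. Their sums were 3793 to 5529 CPM per barcode, against a median of 2045 CPM and a highest value of 6136 CPM in the monocyte gate. Medians were 1545 CPM in the class II-high and 1225 CPM in the granule-enzyme barcodes. In the Ace-Treml4 (3812 CPM) and remaining (3666 CPM) barcodes they were close to the lowest neutrophil-gated value. The oxidase gene Cybb was at 0 in the cytokine pair.

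In the other direction, 7 of 7 class II genes, 7 of 7 dendritic cell genes, 10 of 12 non-classical and 6 of 9 classical monocyte genes were higher in the monocyte pool. A gene at 0 UMIs in the neutrophil pool has an exact Poisson upper bound of 81.7 CPM. Monocyte-pool values were below it for Clec9a (58.6), Zbtb46 (57.0), Xcr1 (52.1 CPM), and for Ace, Fabp4, Treml4, Cd300e and Eno3 (53.7 to 63.5 CPM). All were at 0 in the neutrophil pool, so whether they differ between the pools cannot be decided. Cd209a (280), Flt3 (94.4), Pou2f2 (161), Adgre4 (153) and H2-Ab1 (4010 CPM) were above this bound. For the non-classical list the count rested on the Ace-Treml4 barcodes, whose sums had a median of 7104 CPM. The 4 neutrophil-gated barcodes had 1200 to 2212 CPM, above the medians of the class II-high (571 CPM), granule-enzyme (320 CPM) and remaining (543 CPM) barcodes. Most of these UMIs were of Pglyrp1, which is also on the neutrophil list and gave 60 UMIs in the 4 barcodes, 39 of them in 1. Nr4a1 gave 4 UMIs, all in the WT-TgN3 barcode. Ace, Treml4, Cd300e, Adgre4, Eno3, Pou2f2 and Fabp4 were at 0 in all 4. Counts are again of genes above 50 CPM. Genes of the stress response to tissue digestion were higher in the monocyte pool for 12 of 15. This count was 8 without the 6-month R182C-TgN3 mouse 3, whose barcode held most UMIs of the neutrophil pool. It was 9 with each barcode thinned to 1000 UMIs. Fos gave 266 CPM in the neutrophil pool and 2239 CPM in the monocyte pool, and Jun 886 and 2241 CPM. Their sum overlapped between the gates, with 3166 to 23609 CPM in the neutrophil-gated and 6692 to 41428 CPM in the monocyte-gated barcodes. Cytokine genes moved both ways, with 2 of 9 higher in each gate. Over all 3972 genes the median log2 difference was -0.27.

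The shares of the gates were compared between genotypes by exact permutation over mice. Neutrophil-gated barcodes numbered 2 of 9880 in the 9-month R182C-TgN3 mouse 1, 1 of 5706 in the 6-month R182C-TgN3 mouse 3 and 1 of 6912 in the 9-month WT-TgN3 mouse 2, and 0 in the other 8 mice. A count of 0 in the smallest library, of 2979 kept barcodes, allows a share of up to 0.101% when 3 counts are taken as the limit (exact 95% upper bound 0.124%), and the highest share measured was 0.0202%. R182C-TgN3 mice had a mean share of 0.00629% ± 0.00979 (SD, n = 6) and WT-TgN3 mice of 0.00289% ± 0.00647 (SD, n = 5) (exact permutation test, 2-sided, p = 0.576, adjusted over 3 shares p = 0.792). A difference between genotypes was not detectable at this depth.

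Monocyte-gated barcodes numbered 10, 2 and 6 in the 9-month and 3, 2 and 6 in the 6-month R182C-TgN3 mice 1 to 3. They numbered 0, 4 and 20 in the 6-month WT-TgN3 mice 1 to 3 and 1 and 8 in the 9-month WT-TgN3 mice 1 and 2. The WT-TgN3 mice thus held both the lowest and the highest count, and all shares of R182C-TgN3 mice, from 0.0482% to 0.105%, lay within the range of the WT-TgN3 mice, from 0 to 0.317%. The respective means were 0.0789% ± 0.0230 (SD, n = 6) and 0.105% ± 0.126 (SD, n = 5), with p = 0.792 (exact permutation test, adjusted p = 0.792). The 6-month WT-TgN3 mouse 3 alone gave 20 of the 33 WT-TgN3 barcodes, and without it the mean difference turned from -0.0265 to 0.0265 percentage points. Within batches the means of R182C-TgN3 and WT-TgN3 mice were 0.0747% and 0.0704% in batch 1, 0.0647% and 0.0344% in batch 3 and 0.105% and 0.317% in batch 4, and batch 2 held no WT-TgN3 mouse.

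Among all gated barcodes, neutrophils were 5.16% ± 8.03 (SD, n = 6) for R182C-TgN3 mice and 2.78% ± 5.56 (SD, n = 4) for the WT-TgN3 mice with any (exact permutation p = 0.667, adjusted p = 0.792). By age, the monocyte share was 0.0760% ± 0.0379 (SD, n = 5) at 9 months and 0.103% ± 0.110 (SD, n = 6) at 6 months (exact permutation p = 0.786), and the neutrophil share was 0.00694% ± 0.00972 (SD, n = 5) and 0.00292% ± 0.00715 (SD, n = 6) (exact permutation p = 0.424, adjusted over 3 shares p = 0.786). Tests of whether the genotype difference itself differed between ages gave p = 0.56 for the neutrophil share and p = 0.83 for the monocyte share (exact permutation of ages within genotypes).

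**Figure D3:**
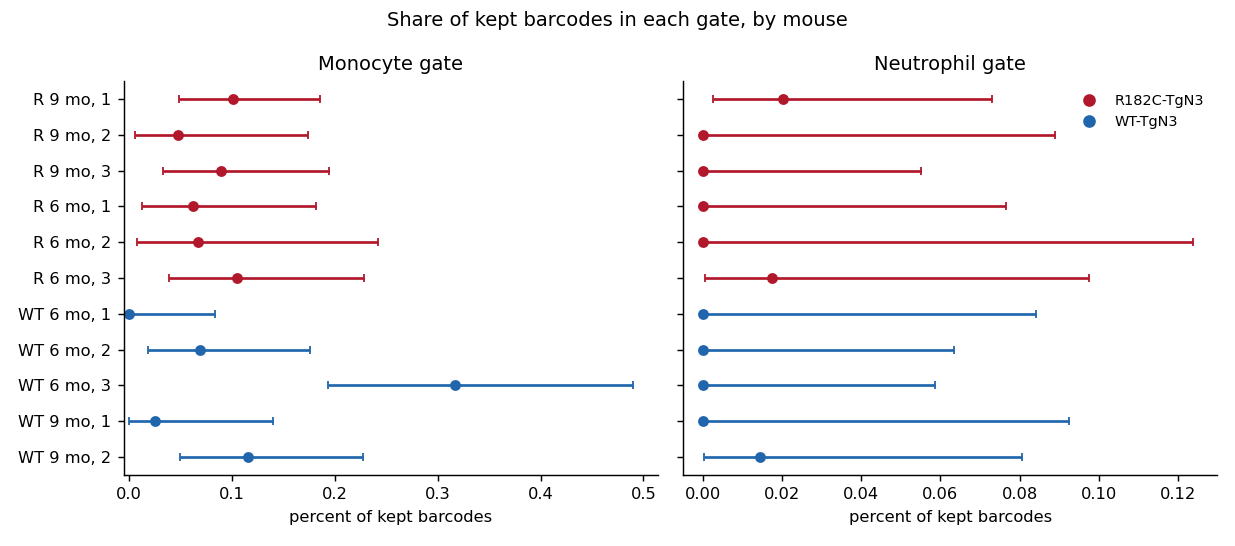
Percent of kept barcodes in the monocyte gate (left) and the neutrophil gate (right) on the x axis, 1 row per mouse, where R is R182C-TgN3, WT is WT-TgN3 and mo is months of age. Points are the measured share and bars the exact 95% binomial interval, which covers counting error only, and the 6-month WT-TgN3 mouse 3 stands highest with 0.317% in the monocyte gate.

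The makeup of the monocyte gate is described next by genotype, for groups cut after the data were seen. Each mouse with any counts equally in the means below, although the mice held from 1 to 20 monocyte-gated barcodes. Class II-high barcodes were 3 of 10, 1 of 2 and 2 of 6 in the 9-month and 0 of 3, 1 of 2 and 2 of 6 in the 6-month R182C-TgN3 mice 1 to 3. They were 3 of 4 and 14 of 20 in the 6-month WT-TgN3 mice 2 and 3 and 1 of 1 and 5 of 8 in the 9-month WT-TgN3 mice 1 and 2. R182C-TgN3 mice had a mean of 32.8% ± 18.3 (SD, n = 6) and WT-TgN3 mice of 76.9% ± 16.2 (SD, n = 4), and no R182C-TgN3 mouse, up to 50.0%, reached the lowest WT-TgN3 mouse at 62.5%. As a share of kept barcodes the genotypes overlapped, with 0 to 0.0351% in R182C-TgN3 mice and 0 to 0.222% in all 5 WT-TgN3 mice. As a percentage of the gate, in each of batches 1, 3 and 4 the WT-TgN3 mice with any were above the R182C-TgN3 mice. In batch 3 this was the 6-month WT-TgN3 mouse 2 alone (3 of 4), and batch 4 held 1 mouse of each genotype. Without barcodes found in another library the order in batch 3 turned, with 100% (1 of 1) in the 6-month R182C-TgN3 mouse 2 against 75%. The median depth of a monocyte-gated barcode was 8128 UMIs for R182C-TgN3 and 7675 UMIs for WT-TgN3 mice. Per mouse the medians ran from 6262 to 9530 UMIs and from 6774.5 to 23312 UMIs, the highest being the only barcode of the 9-month WT-TgN3 mouse 1. No test is given, because the limit was set on these barcodes.

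This separation rested on the limit on P2ry12 and Cx3cr1 and on single barcodes. Cx3cr1 is carried by non-classical monocytes and some dendritic cells as well as by microglia, and of 194 barcodes that met the monocyte markers, 125 exceeded the limit. Of the 106 that failed this limit alone, 78 had P2ry12, which is specific to microglia in the brain, at 0, and 3 of those 78 had a UMI of the microglial gene Tmem119. Among the 78 were 28 class II-high barcodes and 33 over the Ace-Treml4 limit. Without the limit the gate held 168 barcodes, and the class II-high percentage was 39.2% ± 17.9 (SD, n = 6) for R182C-TgN3 mice and 55.2% ± 22.3 (SD, n = 5) for WT-TgN3 mice, with overlapping ranges of 13.3% to 61.5% and 20% to 80%. With the limit put on P2ry12 alone the difference was -17.5 percentage points, against -44.1 under the rule.

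Barcodes shared by libraries touched the same result. Pairs of 6-month libraries shared 62 to 350 barcode sequences and all other pairs 5 to 38. A monocyte-gated barcode of the 6-month R182C-TgN3 mouse 2 (768 UMIs, 14 of Lyz2) was also called in the 6-month R182C-TgN3 mouse 1 (598 UMIs, 16 of Lyz2) and the 6-month WT-TgN3 mouse 3 (546 UMIs, 10 of Lyz2), where it had fewer than 500 genes. Without it that mouse had 1 of 1 class II-high barcodes, the R182C-TgN3 mean was 41.1% ± 33.1 (SD, n = 6) and the genotypes overlapped. The neutrophil-gated barcode of 9614 UMIs shared its sequence with a barcode of the 9-month WT-TgN3 mouse 2 that held 0 UMIs of S100a8 and S100a9 and 21 of P2ry12 and Cx3cr1, and without it the neutrophil gate held 3 barcodes.

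**Figure D4:**
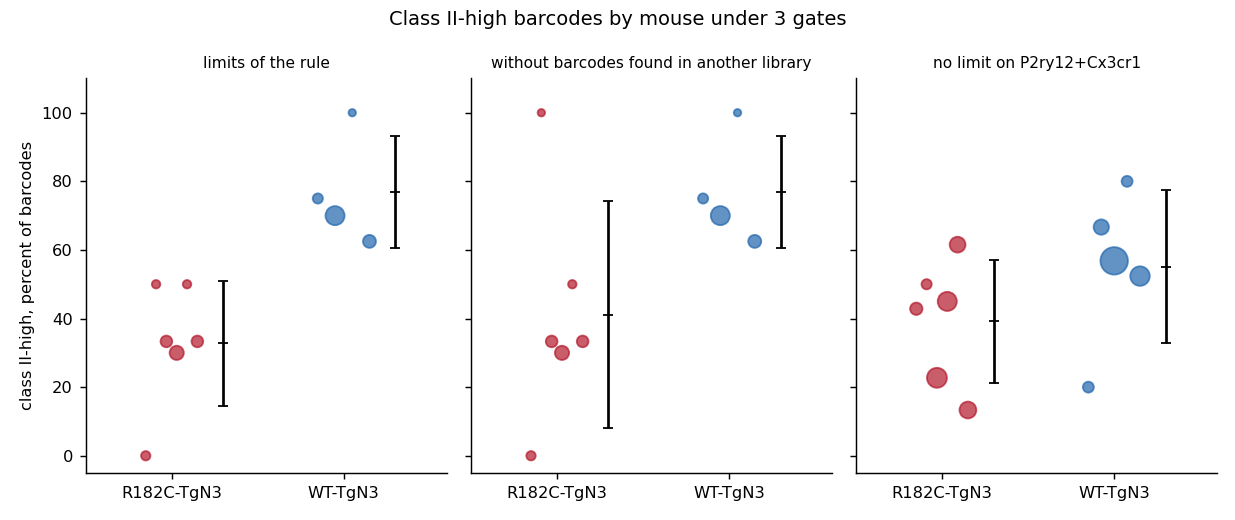
Class II-high barcodes as a percent of monocyte-gated barcodes (y axis) for each mouse with any, by genotype (x axis), under the rule (left), without barcodes found in another library (middle) and with no limit on P2ry12 and Cx3cr1 (right). Each dot is a mouse and its area grows with its number of barcodes, and black bars are mean and SD. The genotypes do not overlap on the left, where the R182C-TgN3 mice reach 50.0% and the WT-TgN3 mice start at 62.5%, and they overlap in the middle and on the right.

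Gene levels in the monocyte gate were compared over the 10 mice with at least 1 such barcode, an analysis added after the counts were known because only 3 R182C-TgN3 and 2 WT-TgN3 mice held at least 5. No gene passed an adjusted p of 0.05 in edgeR (0 of 821 genes in either direction, 0%), where 26 genes had an unadjusted p under 0.05, and DESeq2 called 0 with 39 such genes. H2-Ab1 gave 2156, 6731 and 2805 CPM in the 9-month and 90.8, 7426 and 2344 CPM in the 6-month R182C-TgN3 mice 1 to 3. It gave 3743 and 6635 CPM in the 6-month WT-TgN3 mice 2 and 3 and 8408 and 4732 CPM in the 9-month WT-TgN3 mice 1 and 2. The groups overlapped, and the edgeR log2 difference of R182C-TgN3 against WT-TgN3 was -0.77 ± 0.66 (SE, adjusted p = 0.997). All 6 class II genes tested had a negative log2 difference, with a median of -0.81, and none passed. Over all 821 genes 432 were negative and the median was -0.03.

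The 5 genes with the smallest unadjusted p in edgeR were Inpp4b, Sat1, Cltc, Chka and Gsr. Sat1, an enzyme of polyamine breakdown, had a log2 difference of 1.90 ± 0.61 (SE) and Inpp4b, a phosphoinositide phosphatase, of -2.74 ± 0.79 (SE), both with an adjusted p of 0.997. Sat1 ranged from 79.8 to 2200 CPM in R182C-TgN3 and from 85.8 to 524 CPM in WT-TgN3 mice, and Inpp4b from 0 to 319 CPM and from 170 to 1244 CPM, so both overlapped. Cltc, the clathrin heavy chain, Chka, a choline kinase, and Gsr, the glutathione reductase, had log2 differences of 1.23, 1.64 and 2.15. For neutrophils genes were not compared between genotypes, since 1 WT-TgN3 mouse alone held a neutrophil-gated barcode.

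Across the 11 mice the monocyte share was compared with those of B cell, T cell and haemoglobin-rich barcodes, and the neutrophil share with the same and with the monocyte share, 7 relations that share their denominator. None passed the adjustment. The largest was between the monocyte and T cell shares (Pearson r = 0.54, permutation p = 0.068, adjusted p = 0.476, Spearman rho = 0.57, permutation p = 0.0713, adjusted p = 0.295), and r was 0.45 without the 2 mice farthest from the median T cell share. The neutrophil and monocyte shares gave r = 0.12 (permutation p = 0.738) and rho = 0.55 (permutation p = 0.0843, adjusted p = 0.295). Without the 2 mice with the lowest and highest monocyte share r was 0.77, where the neutrophil share was above 0 in 3 mice only.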

How the data were processed

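Droplet libraries from 11 mice were analysed. The authors aligned reads with Cell Ranger 7.0.0 to an mm10 transcriptome with human NOTCH3 added and deposited raw UMI counts per gene and called barcode, without normalization. No other doublet removal was applied beside the limits of the gate, and removal of scored doublets was an alternative. Totals were 17550806 to 64215050 UMIs per library, so genes with few copies are missed in many barcodes. Intervals are exact binomial or Poisson and cover counting error only. Each mouse was 1 replicate, mice of a genotype and age were numbered as in the labels, and the smallest p was set by the 462 splits of 6 against 5 mice. UMIs are not scaled by gene length, so levels were not compared between genes. Genes were tested with edgeR 4.0.16 (quasi-likelihood, filterByExpr, TMM, Benjamini-Hochberg adjustment) leaving out ribosomal and mitochondrial genes and unnamed Gm or Rik models, with DESeq2 1.42.0 as an alternative. Python 3.11.15, scipy 1.17.1 and R 4.3.3 were used, and the script was tested on simulated data. The gate, its members, the gene lists and the tests were chosen with earlier results of these data known. The genes named were those of the lists that an account turns on and, for genotypes, the 5 with the smallest p where none passed. A replicate block joined mice of 1 age that share a number. In the monocyte gate their deviations correlated across 821 genes with r from -0.17 to 0.20 over 4 pairs, so the numbers were not taken to pair the mice.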

Additional observations from a re-analysis of the deposited data

Results flagged for a closer look

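The 9-month WT-TgN3 mouse 2 was the only WT-TgN3 mouse with a neutrophil-gated barcode, 0.0145% of its kept barcodes against 0 in the other 4 mice, and 11.1% of all its gated barcodes against 0 in the other 3 mice with any. Both values are the same single barcode, and 1 barcode against 0 is the farthest from the others by construction. The exact 95% upper bounds of the mice at 0 were 0.0585% to 0.0925%, above 0.0145%, so counting error does not set this mouse apart. They were the 2 values found among 24 groups of mice examined, where chance flags about 1 in 20 for values without such ties.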

How the results depend on the processing

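No share passed an unadjusted p of 0.05 between genotypes or ages under any alternative with a test. With 250 genes, 20% mitochondrial UMIs, other S100 limits or scored doublets removed, the gates held 4 neutrophil-gated and 60 to 64 monocyte-gated barcodes, while 5 UMIs of Lyz2 with 6 of Ccr2, Plac8 and Ly6c2 gave 35. With 1000 genes the difference of the genotype effect between ages turned to -0.0011 percentage points for the neutrophil share and to -0.79 for neutrophils among both. Leaving out 1 mouse each, the genotype difference ran from -0.0528 to 0.0265 for the monocyte share, where it turned without the 6-month WT-TgN3 mouse 3, and the age difference from -0.0482 to 0.0153. The same mouse turned the monocyte difference of effects (-0.124 to 0.0346), the 9-month WT-TgN3 mouse 2 turned those of the neutrophil share (-0.000906 to 0.0136) and of neutrophils among both (-0.794 to 10.3), and the 9-month R182C-TgN3 mouse 1 turned the age difference of neutrophils among both (-0.0794 to 5.56). The class II-high difference was -66.0 percentage points with the stricter Lyz2 limit, -15.9 without the limit on P2ry12 and Cx3cr1, -17.5 with it on P2ry12 alone, and -48.9 to -36.4 without 1 mouse each. Genotypes also overlapped at 200 UMIs, at 2% of UMIs and with 1000 genes, and the cause was not tested. Without a filter on low counts edgeR called 25 genes (14 higher, 11 lower in R182C-TgN3) of 11514. Between the gates, genes higher in the neutrophil gate ran from 681 to 1227 without 1 mouse each, those higher in the monocyte gate from 1199 to 1763, and the latter were 2076 with each barcode thinned to 1000 UMIs. Relations of the neutrophil share without 2 mice turned to r = 0.057 with B cells, 0.33 with T cells and 0.34 with haemoglobin-rich barcodes and rose to 0.77 with monocytes (permutation p = 0.0219). This p was not adjusted over the 7 relations, and the mice with the lowest and highest monocyte share were left out for it. The neutrophil share was above 0 in 3 mice only, so no link is drawn from it. The monocyte share with haemoglobin-rich barcodes turned to 0.23 without 2 mice and to 0.13 with 250 genes, and the neutrophil share with T cells turned to 0.0067 with 250 genes. With a replicate block the monocyte difference was -0.0286 percentage points (exact sign-flip p = 0.688), the neutrophil difference 0.00466 (exact p = 0.5), and edgeR called 0 genes. The gene tests first planned needed 3 mice of each genotype with at least 5 barcodes and were not run as such, since WT-TgN3 had 2 for monocytes and 0 for neutrophils. On the 3 and 2 mice with 5 monocyte-gated barcodes, edgeR called 0 of 1427 genes (74 at an unadjusted p under 0.05).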

Other observations

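Camp gave 6 to 29 UMIs and Ngp 2 to 14 UMIs in the endothelial barcodes of each of the 11 libraries, although 8 libraries held no neutrophil-gated barcode. These were found in 0.45% and 0.246% of 39800 endothelial barcodes, or 0.609 and 0.335 CPM. The monocyte gate, with 614520 UMIs in all, held 0 UMIs of Camp and 1 of Ngp, too few UMIs to set against such levels. Lcn2 gave 119 to 1988 UMIs in the endothelial barcodes of a library, so in this preparation it was not a marker of neutrophils alone.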
